A study of Mus musculus with 2 samples.

Results

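The genes described here are 8 secreted factors proposed as those of large-vessel endothelium: Calca, Edn1, Tgfb2, Bmp2, Thbs2, Ptn, Cytl1 and Gkn3, 8 of the 32285 genes in the count tables. They were picked by name, with earlier results of these same data known, as factors high in endothelial barcodes that also held Eln or Fbln2, so the height of a gene in those barcodes is given as a description and supports nothing. For Ptn the summed counts by Eln or Fbln2, given below, go against that name, while other large-vessel markers in its few barcodes do not. The data are droplet single-cell RNA sequencing of kidney cells from male C57BL6/J mice of 10 to 12 weeks, taken 72 h after saline or after cisplatin at 20 mg/kg, with 5 mice and 10 kidneys pooled into 1 library per treatment. Both libraries were enriched with magnetic beads against CD31 and then podoplanin and are labelled as lymphatic endothelial cells, and the labels name no transgene or deleted allele. With 1 library of pooled animals per treatment there was no replicate, no test was run, and every interval below covers counting error only.

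Endothelial cells line all vessels, and those of arteries, arterioles and larger veins release factors that reach the smooth muscle and matrix around them. Edn1 encodes endothelin-1, a strong vasoconstrictor. Calca encodes the vasodilator peptide CGRP as well as calcitonin, which are made from differently spliced messages that a single count per gene does not tell apart. Tgfb2 and Bmp2 encode ligands of the TGF-beta superfamily, which signal through paired receptor kinases to SMAD proteins. Thbs2 encodes a matrix-associated thrombospondin that binds CD36 and CD47, Ptn encodes pleiotrophin, a heparin-binding growth factor, Cytl1 encodes a small secreted cytokine-like protein, and Gkn3 belongs to the gastrokines, a family first known from the stomach.

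The genes lie apart in the genome (GRCm38, mm10). Calca is at chr7:114631478-114636357 on the minus strand, Edn1 at chr13:42301476-42307990 on the plus strand, Tgfb2 at chr1:186622792-186705989 on the minus strand and Bmp2 at chr2:133552159-133562885 on the plus strand. Thbs2 is at chr17:14665500-14694235 and Ptn at chr6:36714929-36810220, both on the minus strand. Cytl1 is at chr5:37735519-37739820 on the plus strand and Gkn3 at chr6:87383256-87388935 on the minus strand. No annotated gene overlaps any of the 8 on its own strand, and Tgfb2 and Edn1 have overlapping gene models on the opposite strand (Gm26169 and Gm29491, and Gm47118).

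The 250 bases before the transcription start are shown for 6 of the genes because, as described below, Calca, Thbs2 and Tgfb2 were found in the same barcodes, Cytl1 and Gkn3 in other barcodes, and Edn1 in both. Sequences are from RefSeq (GRCm38.p6), where 7 of the 8 genes matched by symbol, and run 5′ to 3′ on the gene's strand. Capitals mark matches, on either strand, to the TATA box TATAAA, to CACCC, the core bound by KLF factors, or to ACAAT, the core bound by SOX factors. The windows are Calca chr7:114636358-114636607 (minus), Thbs2 chr17:14694263-14694512 (minus), Tgfb2 chr1:186705990-186706239 (minus), Edn1 chr13:42301226-42301475 (plus), Cytl1 chr5:37735269-37735518 (plus) and Gkn3 chr6:87388936-87389185 (minus).
Calca: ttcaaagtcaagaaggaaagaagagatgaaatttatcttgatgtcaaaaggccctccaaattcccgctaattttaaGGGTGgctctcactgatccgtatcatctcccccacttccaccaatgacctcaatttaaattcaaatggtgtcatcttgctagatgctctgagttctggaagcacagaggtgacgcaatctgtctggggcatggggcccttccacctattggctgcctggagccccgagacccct
Thbs2: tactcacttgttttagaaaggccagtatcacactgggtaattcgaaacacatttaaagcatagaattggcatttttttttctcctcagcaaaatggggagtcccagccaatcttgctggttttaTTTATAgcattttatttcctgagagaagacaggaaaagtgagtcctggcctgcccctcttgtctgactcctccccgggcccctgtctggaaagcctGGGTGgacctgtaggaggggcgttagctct
Tgfb2: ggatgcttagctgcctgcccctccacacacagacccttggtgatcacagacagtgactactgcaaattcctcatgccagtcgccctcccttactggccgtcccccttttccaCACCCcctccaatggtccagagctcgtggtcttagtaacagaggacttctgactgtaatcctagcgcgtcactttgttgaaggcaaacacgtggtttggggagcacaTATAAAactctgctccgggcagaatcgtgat
Edn1: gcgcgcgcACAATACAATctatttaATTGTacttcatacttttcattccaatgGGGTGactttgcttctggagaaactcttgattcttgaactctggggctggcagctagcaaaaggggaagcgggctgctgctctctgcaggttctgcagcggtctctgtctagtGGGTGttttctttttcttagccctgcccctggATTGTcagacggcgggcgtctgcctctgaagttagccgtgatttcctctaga
Cytl1: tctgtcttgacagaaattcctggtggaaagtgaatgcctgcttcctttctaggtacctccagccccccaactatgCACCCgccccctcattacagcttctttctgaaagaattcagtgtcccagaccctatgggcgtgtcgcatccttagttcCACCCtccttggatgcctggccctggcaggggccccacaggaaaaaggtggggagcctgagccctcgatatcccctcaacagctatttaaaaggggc
Gkn3: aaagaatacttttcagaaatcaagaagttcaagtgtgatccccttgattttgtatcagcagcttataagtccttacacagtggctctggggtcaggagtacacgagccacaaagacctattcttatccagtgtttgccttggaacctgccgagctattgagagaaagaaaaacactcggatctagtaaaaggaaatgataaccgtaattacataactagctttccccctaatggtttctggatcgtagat

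CACCC was in the window of 6 of the 7 genes matched (Ptn is the one not printed), against 52% of 32851 promoter windows of the same length. The window of Edn1 held 4 matches of ACAAT and no other of the 7 held any, while 27.7% of all windows did. TATAAA stood in the windows of Tgfb2 and Thbs2 and in 12.4% of all windows. Gkn3 had none of these letters. These matches are letters in a window and not measured binding.

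The saline library held 5879496 UMIs (unique molecular identifiers, which count single captured transcripts) and the cisplatin library 19994105, in unfiltered tables. Barcodes with at least 500 UMIs and at most 20% mitochondrial UMIs numbered 627 and 1729, no barcode sequence was kept in both, and doublets were neither called nor removed. These limits were set here and are not the authors' cell calls. At least 1 UMI of Pecam1, Cdh5, Egfl7 or Flt1 was found in 497 saline barcodes (79.3%, 95% interval 75.9% to 82.4%) and 609 cisplatin barcodes (35.2%), which are called endothelial. Their median mitochondrial share was 1.67% and 9.63%. The lymphatic label was not borne out by lymphatic markers. Over 7 of them, 33 of the 497 saline barcodes held 41 UMIs and 63 of the 609 cisplatin barcodes held 121, and Flt4, which other endothelium also makes, was the most counted in both. In saline Mmrn1 and Ccl21a were at 0 and Lyve1 was in 1 barcode.

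Endothelial barcodes were split by UMIs of Eln or Fbln2, which encode matrix proteins of large vessels, against UMIs of Plvap or Fabp4, which mark fenestrated and other capillaries. In saline, 64 barcodes held only the first pair (called large-vessel), 237 only the second (capillary), 91 held both (mixed) and 105 held neither (unsplit). In cisplatin the same classes had 16, 179, 37 and 377 barcodes. Mixed barcodes were the deepest, with a median of 4276 UMIs in saline against 1814 in large-vessel and 868 in capillary barcodes, and 6754, 1123 and 1372 in cisplatin, so a deep barcode had more chance to show both pairs. They also held most of the 8 genes' UMIs, 1048 of 1715 in saline and 279 of 380 in cisplatin. The results are therefore given for the large-vessel class alone and with the mixed class.

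Markers that the split did not use were also high in the large-vessel class of saline. Over 7 large-vessel markers without Eln and Fbln2 it had 7123 CPM (UMIs per 1000000 UMIs of the class) against 1019 in capillary barcodes, and over 10 arterial markers 3286 against 1154. Venous markers were low in both, at 142 and 258 CPM, with Ackr1 and Sele at 0. Markers of smooth muscle and pericytes came to 9 UMIs in 3 of the 64 barcodes. In cisplatin the class was less clean: its 16 barcodes had 6524 CPM of those 7 markers but also 37 UMIs of smooth muscle and pericyte genes, 55 UMIs of Ehd3 and 46 of Kdr, which mark glomerular and other capillaries, and 8179 CPM of proximal tubule genes against 677 in saline.

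In saline, 7 of the 8 genes were counted at higher levels where Eln or Fbln2 was present, and Ptn was not one of them. Among the 7 genes with at least 20 UMIs in the sums compared, 6 were at least 2-fold higher in large-vessel than in capillary barcodes and 1 was at least 2-fold lower, where 8.55% and 11% of 3662 genes were. The choice of the genes fixed this count, so nothing is read from it. With the mixed barcodes added, 7 were higher and 1 lower, beside 11% and 7.72% of 6138 genes. The individual levels below show how the genes differ from one another. In summed counts like these, fewer cells that make a factor and less of it per cell cannot be told apart.

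Both vasoactive peptides were found in a minority of capillary barcodes and at several-fold higher summed levels in the large-vessel class. Calca had 82 UMIs in 10 of 64 large-vessel barcodes (448 CPM, 356 to 556), 217 UMIs in 28 of 91 mixed (452 CPM) and 25 UMIs in 10 of 237 capillary barcodes (106 CPM, 68.4 to 156). Its ratio of large-vessel to capillary was 4.24 (95% interval 2.68 to 6.92). Calca was concentrated: 1 barcode held 35 of the 82 UMIs, and without it the class stood at 274 CPM. Edn1 was the most widely found of the 8, with 100 UMIs in 36 large-vessel barcodes (546 CPM, 444 to 664), 208 in 59 mixed (433 CPM) and 28 in 15 capillary barcodes (118 CPM, 78.6 to 171). The ratio for Edn1 was 4.61 (3.01 to 7.29), and no barcode held more than 16 of its UMIs. Intervals of large-vessel and capillary barcodes did not overlap for either peptide.

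The TGF-beta superfamily ligands both had most of their UMIs in the deep mixed barcodes. Tgfb2 had 68 UMIs in 23 large-vessel barcodes (371 CPM, 288 to 471), 243 in 55 mixed (506 CPM, 444 to 574) and 32 in 13 capillary barcodes (135 CPM, 92.5 to 191), with a large-vessel to capillary ratio of 2.74 (1.78 to 4.32). Where each mixed barcode was instead placed on the side with more UMIs, 95 large-vessel and 284 capillary barcodes, Tgfb2 stood at 1.37, Calca at 2.04, Edn1 at 2.61 and Thbs2 at 2.96, so the call of Tgfb2 ended. Bmp2 had 12 UMIs in 10 large-vessel barcodes (65.5 CPM, 33.8 to 114), 95 in 27 mixed barcodes (198 CPM, 160 to 242) and 1 UMI in capillary barcodes. Bmp2 was thus a low-count gene whose 13 UMIs fell short of the minimum for the large-vessel class. With the mixed barcodes its ratio to capillary was 38.2, with a wide interval of 6.70 to 1521 that rests on the single capillary UMI.

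Thbs2 and Ptn, the matrix-associated and the heparin-binding factor, were distributed in opposite ways. Thbs2 had 79 UMIs in 21 large-vessel barcodes (431 CPM, 341 to 537), 227 in 44 mixed (473 CPM) and 11 in 9 capillary barcodes (46.5 CPM, 23.2 to 83.2), a ratio of 9.27 (4.91 to 19.3). Ptn had 2 UMIs in 1 large-vessel barcode (10.9 CPM), 38 in 6 mixed (79.1 CPM, 56.0 to 109) and 38 in 9 capillary barcodes (161 CPM, 114 to 221). The ratio of Ptn was 0.0680 (0.00794 to 0.263), and 0.375 (0.235 to 0.601) with the mixed barcodes added. In the mixed class 27 of its 38 UMIs came from 1 barcode. Ptn therefore did not follow the other 7 genes: its summed level was higher on the Plvap or Fabp4 side. Its share of barcodes at 500 UMIs, 1.56% (0.0396% to 8.40%) in large-vessel and 3.38% (1.47% to 6.54%) in capillary barcodes, was not distinguishable at this depth.

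Cytl1 and Gkn3 were the genes most tied to barcodes with Eln or Fbln2 and neither capillary gene. Cytl1 had 92 UMIs in 19 large-vessel barcodes (502 CPM, 405 to 616), 5 in 3 mixed (10.4 CPM, 3.38 to 24.3) and 8 in 7 capillary barcodes (33.8 CPM, 14.6 to 66.6), a ratio of 14.9 (7.23 to 35.4). Gkn3 had 26 UMIs in 14 large-vessel barcodes (142 CPM, 92.7 to 208), 15 in 5 mixed (31.2 CPM, 17.5 to 51.5) and 0 in 237 capillary barcodes. With capillary barcodes set at 3 UMIs it was 11.2-fold higher in large-vessel barcodes, and the lower bound of its ratio was 8.47. Both were lower in the mixed than in the large-vessel class, with intervals that did not overlap, while the intervals of Calca, Edn1, Tgfb2 and Thbs2 in these classes did.

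Proximal tubule barcodes, assumed here to lack these factors, were used to gauge how much free RNA adds. They were drawn from barcodes with no UMI of Pecam1, Cdh5, Egfl7 or Flt1, so their shares may understate it. In 108 saline tubule barcodes with a median of 620 UMIs, Edn1 was found in 3 (2.78%, 0.576% to 7.90%), Tgfb2 in 2, Ptn, Thbs2 and Cytl1 in 1 each, and Calca, Bmp2 and Gkn3 in none (exact upper bound 3.36%). Each barcode was therefore also thinned to 500 UMIs. Edn1 was then in 21.9% of large-vessel and 3.38% of capillary barcodes and Cytl1 in 20.3% and 0.422%. Thbs2 stood at 17.2% and 2.11%, and Tgfb2 at 14.1% and 2.95%, with intervals that did not overlap. Calca stood at 10.9% (4.51% to 21.25%) and 3.80% (1.75% to 7.09%), with intervals that did, so its share was not distinguishable at this depth. Bmp2 was in 3 of 64 and 1 of 237 barcodes, at the level of single UMIs. Capillary shares of Edn1, Cytl1, Thbs2, Tgfb2 and Bmp2 at this depth lay inside the interval seen in tubule barcodes, and those of Calca and Ptn just above the bound of 3.36%, with overlapping intervals. By share of barcodes, the capillary class could therefore not be told from tubule barcodes at this depth. By summed level it stood above free RNA, taken from barcodes with 1 to 100 UMIs, for some of the genes. Tgfb2 was at 135 CPM in capillary barcodes (10 of its 32 UMIs in 1 barcode) and 19.4 CPM in free RNA, Edn1 at 118 and 34.6 CPM, Calca at 106 and 25.9 CPM and Ptn at 161 and 17.5 CPM, with intervals that did not overlap. For Thbs2, Cytl1 and Bmp2 they did. In 967 cisplatin tubule barcodes (median 679 UMIs), Edn1 was in 0.827%, each of the others in at most 6 barcodes and Calca in none.

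**Figure D1:**
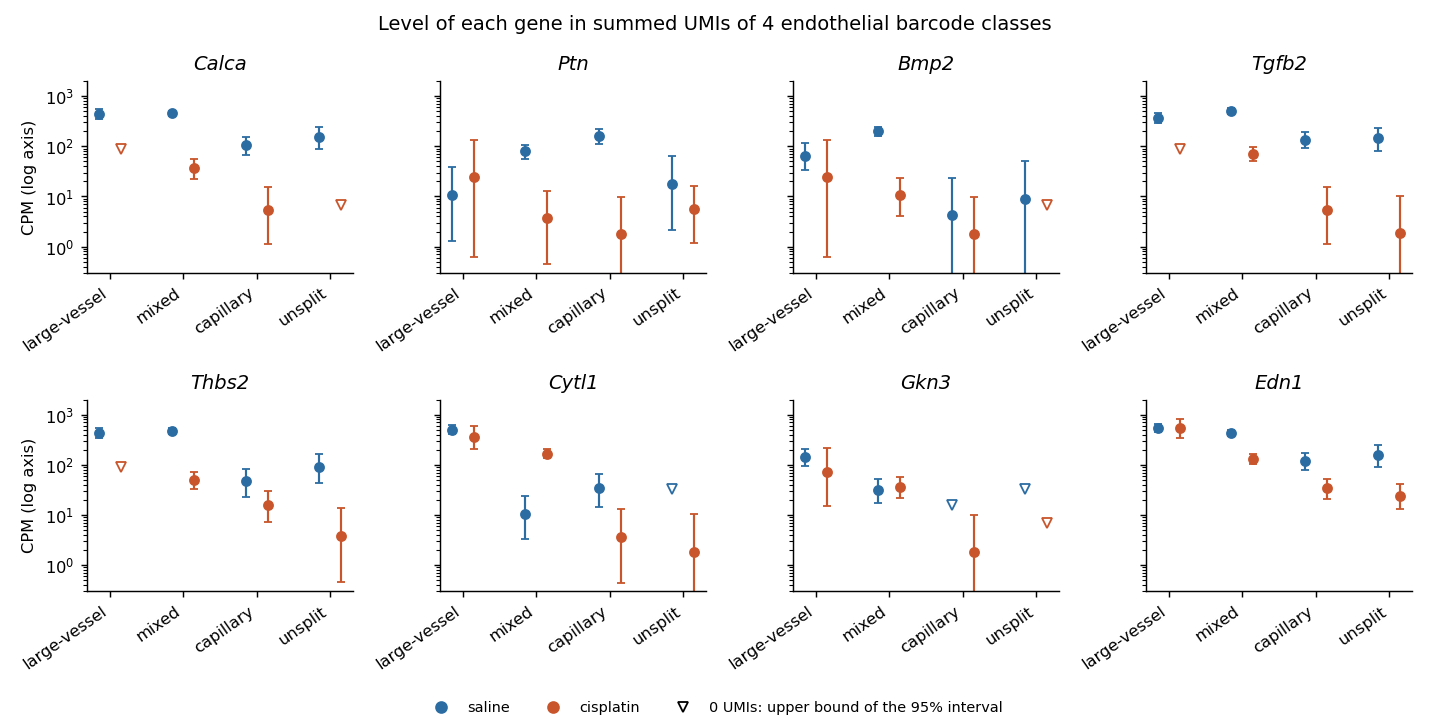
Level of each gene (CPM, log axis) in the 4 endothelial classes of the saline library (blue) and the cisplatin library (orange), as summed UMIs with exact Poisson 95% intervals; an open triangle is the upper bound for a class with 0 UMIs. Cytl1 and Gkn3 drop from large-vessel to mixed saline barcodes while Calca, Tgfb2 and Thbs2 do not, Ptn in saline is highest in the capillary class, and most orange points lie below the blue ones.

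The factors were often found together. In saline, 42 of 64 large-vessel barcodes (65.6%, 52.7% to 77.1%) and 61 of 91 mixed barcodes (67.0%, 56.4% to 76.5%) held 2 or more of the 8 genes, against 11 of 237 capillary barcodes (4.64%, 2.34% to 8.15%) and 6 of 105 unsplit ones. Up to 5 of the genes were found in 1 barcode. At 500 UMIs a barcode, the share with 2 or more was 29.7% (18.9% to 42.4%) in large-vessel, 8.79% (3.87% to 16.6%) in mixed and 1.27% (0.262% to 3.65%) in capillary barcodes. The order of large-vessel above capillary held at equal depth, and the mixed class lost most of its share. These shares count genes chosen on this split and are a description.

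**Figure D2:**
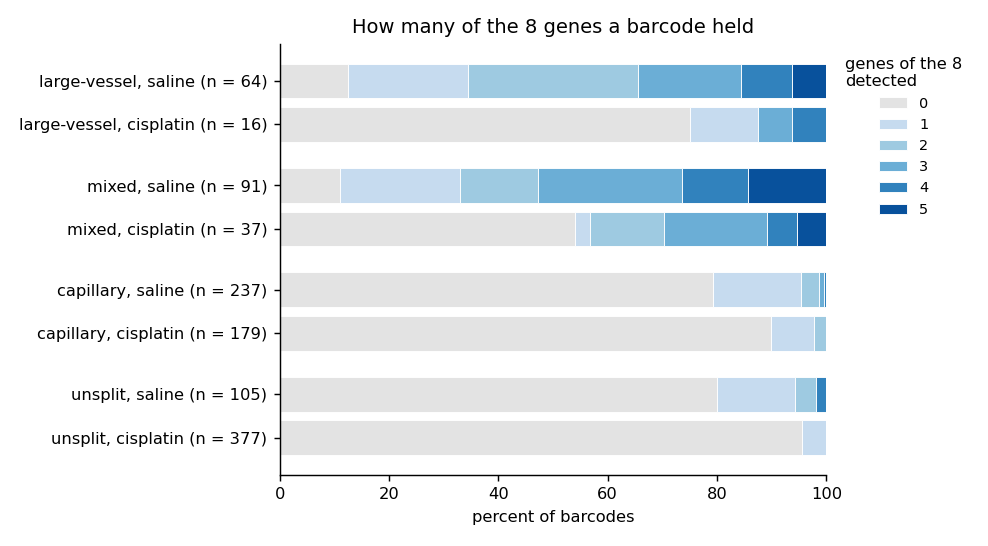
Share of barcodes (percent) by how many of the 8 genes had at least 1 UMI, for each endothelial class and library, without thinning; n is the number of barcodes. Most large-vessel and mixed saline barcodes held 1 or more of the genes (56 of 64 and 81 of 91), and most capillary, unsplit and cisplatin large-vessel barcodes held none.

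Most pairs fell into 2 groups that shared few barcodes. Among the 497 saline endothelial barcodes, Calca was found in 52 and Cytl1 in 29, and in none were both found (an upper bound of 11.9% of Cytl1 barcodes), while Calca was in 52 of 468 barcodes without Cytl1 (11.1%, 8.41% to 14.3%). Calca was likewise absent from all 19 Gkn3 barcodes, and Bmp2 from all 29 Cytl1 barcodes. Thbs2 shared 1 barcode with Cytl1 and 1 with Gkn3. Bmp2 and Gkn3 were an exception: they met in 2 of the 19 Gkn3 barcodes (10.5%, 1.30% to 33.1%), no less than the 37 of 478 others with Bmp2 (7.74%). At these counts the Calca share in Cytl1 barcodes has an interval that still overlaps that in the others, and depth adds to it, since Calca barcodes had a median of 4936 UMIs and Cytl1 barcodes 1788.

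Within each group the factors met often. Genes chosen as high beside Eln or Fbln2 can meet over all endothelial barcodes through that choice alone. These shares, and those at equal depth below, are therefore a description. Of the 52 Calca barcodes, 33 held Thbs2 (63.5%, 49.0% to 76.4%) against 48 of the 445 without Calca (10.8%, 8.06% to 14.1%). Tgfb2 was in 34 of the 52 (65.4%) and Bmp2 in 19 (36.5%), against 14.8% and 4.49% of the rest. Tgfb2 and Thbs2 met in 54 barcodes, which is 54% of Tgfb2 and 66.7% of Thbs2 barcodes. In the other group, Cytl1 was found in 12 of the 19 Gkn3 barcodes (63.2%, 38.4% to 83.7%) against 17 of 478 without Gkn3 (3.56%, 2.09% to 5.63%). Edn1 was spread over both groups, in 33 of 52 Calca, 74 of 100 Tgfb2, 56 of 81 Thbs2, 11 of 29 Cytl1 and 9 of 19 Gkn3 barcodes. Of the 17 Ptn barcodes, 1 held Calca, 3 Cytl1 and none Gkn3. Over all 497 endothelial barcodes Calca was in 10.5%, Cytl1 in 5.84% and Gkn3 in 3.82%. The counts are too small to place Ptn with either group or apart from both.

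Depth inflates such pairs, so they were counted again over the 112 saline endothelial barcodes with at least 2000 UMIs, each thinned to 2000. Thbs2 was then in 16 of 24 Calca barcodes (66.7%, 44.7% to 84.4%) against 29 of 88 others (33.0%, 23.3% to 43.8%), and in 26 of 46 Tgfb2 barcodes (56.5%) against 19 of 66 (28.8%). Gkn3 was in 3 of 8 Cytl1 barcodes against 4 of 104. Calca was in 0 of 8 Cytl1 barcodes against 24 of 104 others, and Thbs2 in 0 of 8 against 45 of 104 (43.3%, 33.6% to 53.4%). The tie of Edn1 to Tgfb2, which met in 74 barcodes in the unthinned counts, was not seen among these deep barcodes: Tgfb2 was in 41.8% of Edn1 barcodes and 40.4% of the others. That of Bmp2 to Tgfb2 was not seen either, at 36.4% of Bmp2 barcodes and 42.2% of the others. Intervals did not overlap for Thbs2 with Calca, and they did for Thbs2 with Tgfb2, Gkn3 with Cytl1 and Thbs2 without Cytl1. Over all 497 barcodes thinned to 500 UMIs, Gkn3 was in 5 of 14 Cytl1 barcodes (35.7%, 12.8% to 64.9%) and 3 of 483 others (0.621%, 0.128% to 1.80%). At that depth Edn1 was in 8 of 34 Tgfb2 barcodes (23.5%, 10.7% to 41.2%) and 7.78% of the others (5.50% to 10.6%), so the tie of this pair depends on which barcodes are counted: it was there over all barcodes and not among the deep ones.

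In cisplatin the pairs were few. Of 17 Tgfb2 barcodes, 12 held Edn1 and 9 held Thbs2. Cytl1 was in 8 barcodes, of which 4 held Gkn3 and none held Calca or Thbs2. The line between the groups was less clear there for Bmp2, since 3 of its 7 barcodes held Gkn3 and 2 held Cytl1.

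**Figure D3:**
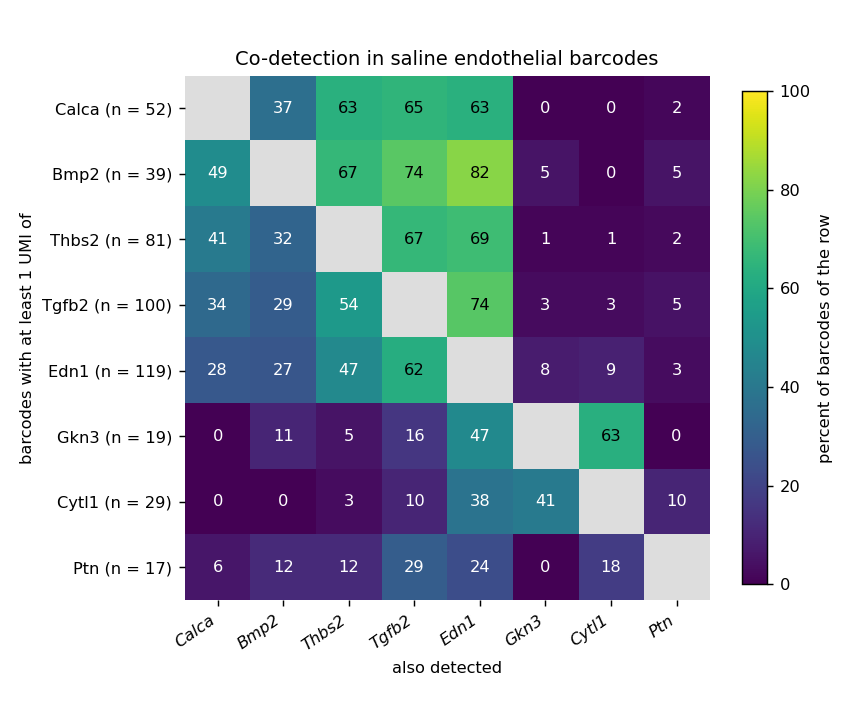
Percent of the saline endothelial barcodes with a gene (rows, n barcodes) in which each other gene (columns) was also found, without thinning. Calca, Bmp2, Thbs2, Tgfb2 and Edn1 form a block of 26.9% to 82.1%, Cytl1 and Gkn3 a second one of 41.4% and 63.2%, Edn1 joins both, and the Calca and Cytl1 cells read 0.

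What else the barcodes of each group held was then compared. The groups were drawn after their values had been seen: 108 saline barcodes with Calca, Bmp2 or Thbs2 and without Cytl1 or Gkn3 (median 3966 UMIs), and 32 with Cytl1 or Gkn3 and without the other 3 genes (median 1737 UMIs). Only 4 barcodes fitted both, all of them mixed. Over the 7 large-vessel markers without Eln and Fbln2, the Cytl1 or Gkn3 barcodes had 16174 CPM, the Calca, Bmp2 or Thbs2 barcodes 1956 CPM and capillary barcodes 1019 CPM. Summed, these markers in the Calca, Bmp2 or Thbs2 barcodes stood nearer to capillary than to Cytl1 or Gkn3 barcodes. Of the 108, however, 26 fell in the large-vessel and 52 in the mixed class. Mgp alone gave 10158 of the 16174 CPM. Not all of the markers differed so: Fbln5 was in 67.6% of the Calca, Bmp2 or Thbs2 barcodes and 65.6% of the Cytl1 or Gkn3 barcodes. Ltbp4 was in 73.2% and 84.4%. Mgp, Vwf, Bgn, Vcam1 and Clu were in far smaller shares of the Calca, Bmp2 or Thbs2 barcodes. Arterial markers differed less, at 3979 CPM and 2702 CPM against 1154 CPM in capillary barcodes. Smooth muscle and pericyte genes came to 9 UMIs in 3 of the 32 barcodes and 3 UMIs in 3 of the 108. The 17 Ptn barcodes had 3906 CPM of the 7 large-vessel markers. Over 9 capillary markers, Plvap and Fabp4 among them, the Ptn barcodes had 1616 CPM. The Calca, Bmp2 or Thbs2 barcodes had 1563 CPM of these and capillary barcodes 15089 CPM.

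Several of the genes looked at stood far apart between the Cytl1 or Gkn3 barcodes and the Calca, Bmp2 or Thbs2 barcodes. Mgp, which encodes matrix Gla protein, stood at 10158 CPM in the Cytl1 or Gkn3 barcodes and 559 CPM in the others, and Eln, elastin, at 1616 and 172 CPM. Bgn, biglycan, stood at 856 and 11.2 CPM. Gja5, the arterial connexin 40, was at 462 against 16.8 CPM, Cldn5, a tight junction claudin, at 2119 against 216 CPM and Vwf, von Willebrand factor, at 503 against 14.9 CPM. The opposite order was seen for Sox17, an arterial transcription factor (394 against 852 CPM), for Klf4, a shear-responsive transcription factor (489 against 1042 CPM) and for Emcn, endomucin (163 against 959 CPM). Tspan8, a tetraspanin, stood at 136 against 2441 CPM, with 123 CPM in capillary barcodes. In the 17 Ptn barcodes Tspan8 summed to 2184 CPM, but from 4 barcodes (23.5%), against 78 of 108 (72.2%) in the Calca, Bmp2 or Thbs2 group. Vwf was in 9 of the 17 (657 CPM) and in 18 of 32 barcodes of the Cytl1 or Gkn3 group, and Gja5 was in none of the Ptn barcodes.

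**Figure D4:**
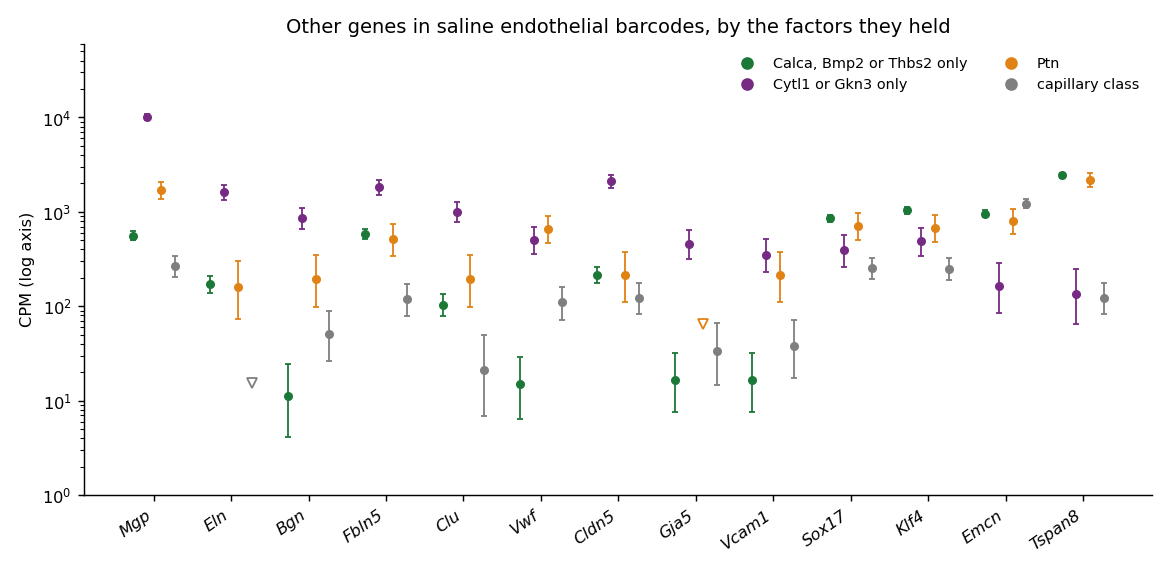
Level (CPM, log axis) of 13 other genes in saline endothelial barcodes grouped by the factors they held, with exact Poisson 95% intervals; an open triangle is an upper bound for 0 UMIs, and Klf4 and the other genes shown were chosen after their values were seen. Mgp, Eln, Bgn, Clu, Cldn5, Gja5 and Vcam1 are highest with Cytl1 or Gkn3, and Tspan8, Sox17 and Klf4 with Calca, Bmp2 or Thbs2.

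The genes whose counts ran most like each factor across the 497 saline endothelial barcodes were then listed. Likeness was Pearson's r of log-scaled UMIs per 10000, over 3567 genes, and is a description: the barcodes share a library and differ in depth. For the 8 genes summed, Vim, the filament protein vimentin (r = 0.61), led before the calcium-binding S100a4 (0.59), Crip1 (0.57) and S100a6 (0.54), followed by Fbln2 and Fbln5 (both 0.49). Tspan8 led for Thbs2 (0.59), Tgfb2 (0.50) and Bmp2 (0.41), followed for Thbs2 and Bmp2 by Npnt, nephronectin, a matrix protein (0.51 and 0.38). Calca ran most like Plac8 (0.42) and Thbd, thrombomodulin (0.35). Bgn led for Cytl1 (0.68) and Eln for Gkn3 (0.58), with Mgp next for Cytl1 (0.60). Eln and Fbln2 are genes of the split on which the factors were chosen, so likeness to either supports nothing. Vwf (0.51) led for Ptn and S100a4 (0.50) for Edn1. Among the factors themselves the highest were Cytl1 with Gkn3 (0.53) and Tgfb2 with Edn1 (0.44).

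Genes that receive or shape these signals were taken from lists of known partners. In saline, 25 partners had at least 20 UMIs in the large-vessel and capillary sums, of which 7 were lower and 4 higher in large-vessel barcodes, beside the 11% and 8.55% of all genes given above. The 7 were receptors or co-receptors in 6 cases, from 5 of the 8 lists. Ednrb, the endothelin B receptor, had 5 UMIs in large-vessel and 75 in capillary barcodes (27.3 and 317 CPM, ratio 0.0861, 0.0272 to 0.210), opposite to its ligand Edn1, while Ece1, the enzyme that activates endothelin, stood at 0.851. Cd36, a thrombospondin receptor that is itself on the capillary list, had 1 and 44 UMIs (ratio 0.0294, 0.000727 to 0.172), opposite to Thbs2. Cd47 stood at 0.682. The directions of Edn1 and Thbs2 in this comparison were fixed by the choice of the genes. Ramp3, a partner of the CGRP receptor family, was lower (0.221, 0.0835 to 0.496), while Calcrl, the receptor itself, and Ramp2 stood at 1.67 and 1.66.

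Of 6 TGF-beta genes with enough UMIs, 3 were lower in large-vessel barcodes (the receptors Tgfbr2 and Tgfbr3 and the ligand Tgfb1) and 1 higher, Ltbp4 at 2.00 (1.54 to 2.61), which binds latent TGF-beta and is itself on the large-vessel list. Of 4 BMP ligands and receptors, Bmp4 (4.13, 1.45 to 14.4) and Acvrl1, the endothelial receptor ALK1 (3.23, 2.02 to 5.30), were higher and none was lower. Mgp, an inhibitor of BMP ligands that is itself on the large-vessel list, stood at 15.8. It was the only one of 6 BMP inhibitors and targets past the limit. Nrp1, a co-receptor named for pleiotrophin, stood at 0.350 (0.261 to 0.463), and Ptn's other partner with enough UMIs, Ncl, at 0.982. Neither Gkn1 nor Gkn2 had enough UMIs. With the mixed class added, 31 partners had enough UMIs, of which 8 were lower and 6 higher. Ednrb then stood at 0.152, Cd36 at 0.146, Mgp at 7.13 and Bmp4 at 2.14 (0.822 to 7.06), and Nrp1 at 0.506 was within the limit.

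In cisplatin the large-vessel class was small, and its counts are thin. Edn1 was the only one of the 8 with enough UMIs, and it was higher in large-vessel than in capillary barcodes, beside 10.1% of 5324 genes. It had 22 UMIs in 2 of 16 large-vessel barcodes and 19 in 5 of 179 capillary barcodes (536 and 34.0 CPM, ratio 15.8, 8.15 to 30.8). Of those 22 UMIs, 21 sat in 1 barcode, and without it the class stood at 32.6 CPM, so this difference rests on a single barcode. Without barcodes that held a UMI of smooth muscle, pericyte or fibroblast genes, 8 large-vessel barcodes were left and Edn1 was at 0 in them. With the mixed class added, 6 genes had enough UMIs and all 6 were higher than in capillary barcodes, beside 5.98% of 7847 genes (6.07% were lower): Cytl1, Gkn3, Tgfb2, Calca, Edn1 and Thbs2, with ratios from 2.84 for Thbs2 to 50.7 for Cytl1. The call of Calca rests on 1 barcode with 19 of its 20 UMIs: without it Calca was at 1.71 CPM, below the 5.36 CPM of capillary barcodes. As in saline, that side of the split is where the genes were chosen to be high. In cisplatin the 2 sides differed little in the 7 large-vessel markers without Eln and Fbln2. Large-vessel and mixed barcodes had 3306 CPM of them and capillary barcodes 2936 CPM, against 4005 and 1019 CPM in saline.

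Comparing the libraries, fewer large-vessel barcodes of cisplatin held these genes. In 2 of 16 (12.5%, 1.55% to 38.4%) there were 2 or more, against 65.6% in saline, and among mixed barcodes in 16 of 37 (43.2%, 27.1% to 60.5%) against 67.0%. At 500 UMIs, no cisplatin barcode of any class held 2, but the upper bounds of 20.6% for large-vessel and 9.49% for mixed barcodes overlap the saline intervals, so a difference in this share was not detectable at that depth. The share with at least 1 of the genes did differ beyond counting error at 500 UMIs. It was 67.2% (54.3% to 78.4%) in saline and 6.25% (0.158% to 30.2%) in cisplatin large-vessel barcodes, and 54.9% (44.2% to 65.4%) and 16.2% (6.19% to 32.0%) in mixed ones.

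In the large-vessel class alone, 6 genes had enough UMIs to compare. Calca, Tgfb2 and Thbs2 had 82, 68 and 79 UMIs in saline and 0 in the 16 cisplatin barcodes. With the cisplatin class set at a floor of 3 UMIs they were 6.13-, 5.08- and 5.90-fold lower. The upper bounds of their ratios were 0.205, 0.249 and 0.213. Cytl1 stood at 365 CPM in cisplatin and 502 in saline (0.727, 0.391 to 1.26), Gkn3 at 73.0 and 142 (0.515, 0.100 to 1.68) and Edn1 at 536 and 546 (0.981, 0.589 to 1.57). These 3 lay within the 2-fold limit, with intervals that include 1. So 3 of 6 were lower and none higher, where 27.5% of 2031 genes were lower and 6.65% higher, a background that is itself tilted toward lower. The median log2 ratio of those 2031 genes was -0.31. Edn1 again rests on 1 cisplatin barcode.

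With the mixed class the counts are larger. Calca had 299 UMIs in saline and 20 in cisplatin (451 and 33.9 CPM, ratio 0.0751, 0.0452 to 0.118), and 19 of those 20 came from 1 barcode. Bmp2 had 107 and 7 (161 and 11.9 CPM, 0.0735, 0.0289 to 0.157), and Thbs2 306 and 27 (461 and 45.7 CPM, 0.0991, 0.0643 to 0.147). These 3, which shared barcodes in saline, were 13.3-, 13.6- and 10.1-fold lower in the cisplatin library. Tgfb2 had 311 and 39 UMIs (469 and 66.0 CPM, 0.141, 0.0983 to 0.197), and Ptn 40 and 3 (60.3 and 5.08 CPM, 0.0843, 0.0167 to 0.265). Edn1, which was spread over both groups of barcodes, had 308 and 95 (464 and 161 CPM, 0.347, 0.272 to 0.437). The ratio of Edn1 was nearer 1 than those of the other lower genes, with an interval that did not overlap theirs.

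Cytl1 and Gkn3 were the genes that did not pass the 2-fold limit. Cytl1 had 97 UMIs in saline and 107 in cisplatin (146 and 181 CPM, 1.24, 0.933 to 1.65), and Gkn3 41 and 23 (61.8 and 38.9 CPM, 0.630, 0.361 to 1.08). In cisplatin, however, 83 of the 107 Cytl1 UMIs and 14 of the 23 Gkn3 UMIs came from a single barcode each. Without the barcode with the most UMIs in each library, Cytl1 stood at 42.2 CPM in cisplatin and 128 in saline, and Gkn3 at 15.8 and 53.7. Both were then more than 2-fold lower in cisplatin, as Edn1 was at 128 and 449. Their place within the 2-fold limit thus does not hold without those barcodes. Counted in the same way, Thbs2 stood at 37.0 CPM in cisplatin and 440 in saline, and Tgfb2 at 50.7 and 465. Bmp2 stood at 8.77 and 133, Calca at 1.71 and 405 and Ptn at 3.4 and 19.7. Cytl1 and Gkn3 still differed less between the libraries than these genes did. The level of Cytl1 and Gkn3 in cisplatin therefore rests on very few barcodes. Where each mixed barcode was placed on the side with more UMIs, Cytl1 stood at 3.33 in the large-vessel class, higher in cisplatin, and Gkn3 at 1.69. Counted by barcodes without thinning, Cytl1 was in 22 of 155 saline and 5 of 53 cisplatin barcodes (14.2% and 9.43%). Gkn3 was in 19 and 5 (12.3% and 9.43%), while Calca went from 24.5% to 3.77% and Thbs2 from 41.9% to 17.0%. The cisplatin barcodes were deeper, with a median of 5117 UMIs against 2892. At 500 UMIs a barcode, Cytl1, Gkn3, Calca and Thbs2 were each in 1 cisplatin barcode (1.89%). Their saline shares were then 8.39%, 5.16%, 11.6% and 12.9%, with intervals that overlapped those of cisplatin. Equal depth thus did not set Cytl1 and Gkn3 apart from Calca and Thbs2.

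In all, 6 of the 8 were at least 2-fold lower and none higher in cisplatin, where 6.25% of 7590 genes were lower and 12.1% higher. The median log2 ratio of the 8 was -3.06 against 0.06 over all genes tested. The capillary class gave lower levels in cisplatin for the 5 genes with enough UMIs: Calca went from 25 to 3 UMIs (106 and 5.36 CPM, 0.0507), Ptn from 38 to 1 (0.0111), Tgfb2 from 32 to 3 (0.0396), Thbs2 from 11 to 9 (46.5 and 16.1 CPM, 0.346, 0.127 to 0.918) and Edn1 from 28 to 19 (118 and 34.0 CPM, 0.287, 0.151 to 0.532). All 5 were at least 2-fold lower, where 8.14% of 6279 genes were. Markers of the class differed between the libraries as well. Capillary markers stood at 15089 CPM in saline and 6445 in cisplatin, smooth muscle and pericyte markers at 29.6 and 423, fibroblast markers at 76.1 and 402 and proximal tubule markers at 3973 and 7145, with free RNA at 11.9% and 30.9%. Over all endothelial barcodes 7 of 8 were lower, beside 5.92% of 10501 genes, and Cytl1 stood at 0.628. The choice of the genes limits this count in the same way.

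**Figure D5:**
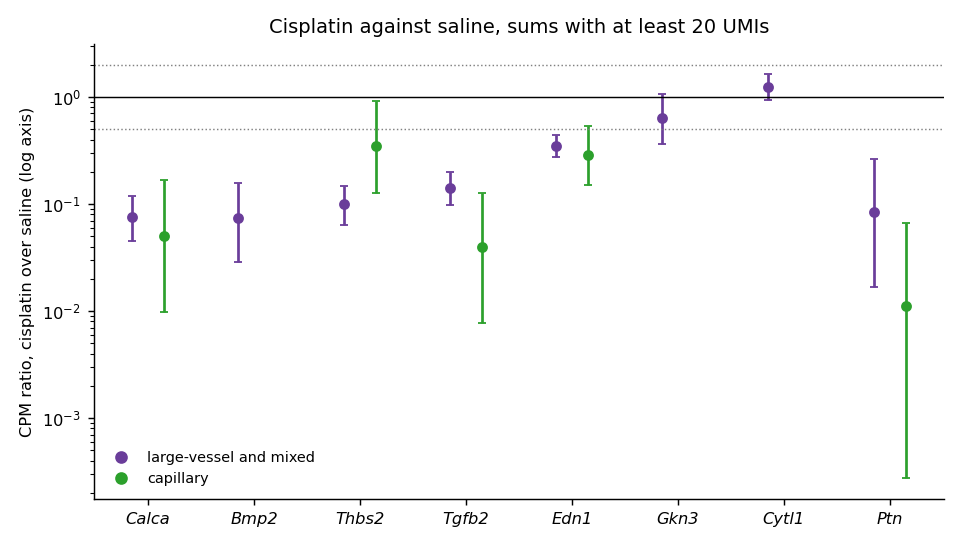
Ratio of summed CPM, cisplatin over saline (log axis), for each gene with at least 20 UMIs, in large-vessel and mixed barcodes together (purple) and in capillary barcodes (green), with 95% intervals; dotted lines mark 2-fold either way. Calca, Bmp2, Thbs2, Tgfb2, Edn1 and Ptn lie below the lower line and Gkn3 and Cytl1 between the lines, and 83 of 107 Cytl1 UMIs in cisplatin came from 1 barcode, without which Cytl1 too was more than 2-fold lower.

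Several measures differed between the libraries along with these genes, and their part in the differences was not tested. Large-vessel and mixed barcodes had a median mitochondrial share of 2.12% in saline and 7.12% in cisplatin. Kdr and Ehd3, capillary genes, had 72 and 21 UMIs in the mixed saline barcodes and 732 and 440 in the mixed cisplatin barcodes (150 and 43.7 CPM against 1332 and 800 CPM), so the mixed classes of the libraries differed in capillary genes as well. Mixed cisplatin barcodes had 3065 CPM of the 7 large-vessel markers against 2816 in saline, and 1475 CPM of arterial markers against 2789. Capillary barcodes of cisplatin had 2936 CPM of the 7 large-vessel markers, near the mixed class, and those of saline 1019 CPM. In mixed barcodes, smooth muscle and pericyte genes stood at 10.4 CPM in saline and 171 CPM in cisplatin. Collecting duct genes had 3 UMIs there in saline (6.24 CPM) and 1086 UMIs in 15 of 37 cisplatin barcodes (1976 CPM). Proximal tubule genes stood at 506 and 2814 CPM. Mixed barcodes gave 549733 of the 590812 UMIs of the large-vessel and mixed sum in cisplatin, and 480445 of 663658 in saline. Free RNA, estimated from proximal tubule genes, made up 2.04% of large-vessel UMIs in saline and 35.4% in cisplatin.

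Among the partner genes, 17 had enough UMIs to compare large-vessel barcodes of the libraries, of which 2 were lower and 3 higher in cisplatin, beside 27.5% and 6.65% of all genes. In large-vessel barcodes Calcrl was lower in cisplatin (8 against 136 UMIs, 0.262, 0.111 to 0.532), as was Acvrl1 (0.412, 0.146 to 0.946), while Nrp1 (2.23, 1.41 to 3.46), Eng, endoglin, a co-receptor for BMP ligands (2.07, 1.41 to 2.98) and Id3, a target of BMP signalling (2.88, 2.00 to 4.12), were higher. Id1 stood at 1.75 and Mgp at 0.907, both within the limit. Ltbp4 stood at 0.763 and Ece1 at 1.23. None of these 5 calls held with the mixed class added, where Calcrl stood at 0.585, Acvrl1 at 0.584, Nrp1 at 1.25, Eng at 1.92 and Id3 at 1.58. Of 32 partners with enough UMIs there, 4 were lower and 9 higher, beside 6.25% and 12.1% of all genes. Ednrb had 32 UMIs in saline and 215 in cisplatin (7.55, 5.19 to 11.3), Tgfbr3 stood at 6.64 and Cd36 at 3.62, and Ltbp4 (0.294) and Ltbp1 (0.273) were lower.

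Counts of these genes also lay outside the limits that define the barcodes. Just below the limit, endothelial barcodes with at least 200 and under 500 UMIs held at most 5 UMIs of any of the 8 genes in saline (321 barcodes, up to 49.6 CPM) and 7 in cisplatin (692 barcodes, up to 32.3 CPM). Above 20% mitochondrial UMIs there were 2 endothelial barcodes in saline, with none of the genes, and 364 in cisplatin, with at most 7 UMIs of a gene, Cytl1 at 18.7 CPM. Barcodes with 1 to 100 UMIs, read here as free RNA, held more. In saline they had 128 UMIs of Edn1 (34.6 CPM), 96 of Calca (25.9 CPM), 82 of Thbs2 (22.1 CPM) and 78 of Cytl1 (21.1 CPM). In cisplatin they had 47 of Cytl1 (22.0 CPM), 46 of Edn1 (21.5 CPM), 16 of Ptn, 11 of Thbs2 (5.14 CPM) and 3 of Calca (1.40 CPM). The 16 UMIs of Ptn were more than its 7 in all cisplatin endothelial barcodes.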

How the data were processed

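UMI counts per gene and barcode are used as deposited, in unfiltered tables of 1 saline and 1 cisplatin library. Per the submitters' processing notes, the authors' counting used mm10 and Cell Ranger (6.0.1), while the file headers carry a Cell Ranger version mark of 4. Aligner settings and the authors' own cell calls are not given in the sources used here.

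From the counts, barcodes with at least 500 UMIs and at most 20% mitochondrial UMIs were kept, those with a UMI of 1 of 4 endothelial genes were called endothelial, and these were split by UMIs of Eln or Fbln2 against Plvap or Fabp4. Counts were summed per class and scaled to CPM. With 1 library per group, a gene counts as higher or lower at 2-fold or more with at least 20 UMIs in both sums together, and no test was run. Intervals are 95% (exact Poisson for sums, exact Clopper-Pearson for shares, exact conditional binomial for ratios) and cover counting error only, since the spread between animals is not in them. A class at 0 is set at a floor of 3 UMIs for a fold. Median log2 ratios had 0.5 UMI added to each sum. Barcodes were thinned at random to 500 or 2000 UMIs where shares are compared at equal depth. Doublets were not called. Free RNA was profiled from barcodes with 1 to 100 UMIs.

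The 8 genes, the marker lists and the partner lists were chosen with earlier results of these data known. All 8 genes are named, with the 8 genes most correlated with their sum and the 3 most correlated with each (at least 50 UMIs), and from each partner list those past the fold or farthest from it. Genes compared between the groups of barcodes, and the groups themselves, were picked after their values were seen, and leaving Eln and Fbln2 out of the large-vessel markers was a later choice too. The alternatives tried were the limits on UMIs and mitochondrial share, a stricter endothelial gate, other treatments of mixed barcodes, leaving out barcodes with genes of other cell types, equal depth, free RNA subtraction, and other fold and count minimums. Scripts (Python 3.11.15, numpy 2.4.6, scipy 1.17.1, pandas 2.3.3, matplotlib 3.10.9) were tested on simulated data.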

Additional observations from a re-analysis of the deposited data

How the results depend on the processing

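The limits are 1 pooled library per treatment, few large-vessel barcodes in cisplatin, and classes set by UMIs of 4 genes, so that a deep barcode is more often mixed. No paired analysis was possible because each group has 1 library. Of the counts of genes and shares of barcodes recomputed under the alternatives, 54 stayed near the reported value and 21 moved, and of the single ratios 258 stayed, 60 moved and 1 turned.

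In cisplatin, the number of the 8 genes higher in large-vessel than in capillary barcodes, 1 as reported, was 5 with mixed barcodes placed by more UMIs, 6 with mixed barcodes counted as large-vessel (an alternative chosen after seeing the data), 2 at a minimum of 5 UMIs and 5 with no minimum. It was 0 at 500 UMIs a barcode, 0 without podocyte list UMIs and 0 without smooth muscle, pericyte or fibroblast UMIs, where the Edn1 ratio turned from 15.8 to 0 over 8 large-vessel barcodes. The number lower in cisplatin in large-vessel barcodes, 3 as reported, was 5 with mixed barcodes placed by more UMIs, 6 with them counted as large-vessel, 5 without smooth muscle, pericyte or fibroblast UMIs and 0 without podocyte list UMIs. In capillary barcodes the 5 lower genes became 0 at 500 UMIs a barcode and 0 without podocyte list UMIs. The latter also took the 6 higher genes of saline to 0, since 7 large-vessel barcodes were left in each library and no gene had 20 UMIs. The podocyte list holds Podxl, which endothelium also makes, and without Podxl, Synpo and Cdkn1c in it (chosen after seeing the data) 6 genes were higher in saline.

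The share of large-vessel barcodes with 2 or more of the genes, 65.6% in saline, was 85% with at least 2 UMIs of the own side, 28.6% without podocyte list UMIs and 29.7% at 500 UMIs a barcode. In cisplatin, 12.5% became 66.7% (2 of 3 barcodes), and 0 without podocyte list UMIs, at 500 UMIs a barcode and without smooth muscle, pericyte or fibroblast UMIs. Apart from counts and barcodes lost to a setting, the cause of these shifts was not tested.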
